A study of Rattus norvegicus with 12 samples.

Results

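The genes described here are 35 genes of the cell cycle and proliferation, listed by symbol for their known roles: 16 act in or just before DNA replication (S phase members) and 19 act in mitosis (mitotic members). All 35 were found among the 25252 genes of the deposited table, and all 35 passed the filter of a mean of 0.5 FPKM that left 16753 genes for testing. They were measured in dorsal root ganglia, the clusters of sensory neuron cell bodies beside the spinal cord, of 12 Sprague Dawley rats whose genotype is labelled Wild, with 4 rats and 1 library per rat in each of 3 groups. A first group was injected into the peritoneum with cisplatin, a platinum drug that crosslinks DNA, at 3 mg/kg on days 0, 7 and 14, and every day from day -1 to day 20 with CYM-5478, an agonist of sphingosine 1-phosphate receptor 2. The labels of these samples put the CYM-5478 dose at 0.1 mg/kg and the treatment protocol at 1 mg/kg. A further group had the same cisplatin alone. The last group had vehicle alone, which was saline carrying Tween 20 at 0.1% and DMSO at 1%. No group had CYM-5478 without cisplatin. The labels give no sex or age, and do not say how many ganglia or which spinal levels made up a sample.

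A dividing cell copies its DNA in S phase and separates the copies in mitosis, and the genes for each step are switched on in turn by E2F factors first and by B-MYB and FOXM1 complexes later. Neurons of adult ganglia have left the cycle for good, whereas satellite glia, Schwann cells, immune cells and any blood-forming cells in a sample can divide. Which cells the transcripts come from was not measured, and in bulk RNA fewer cells of a type and less RNA per cell cannot be told apart.

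Promoters are shown for 5 members to display elements known from promoters of S phase and mitotic genes. RefSeq promoter sequences of build GRCr8 matched 26 of the 35 members, 12 S phase and 14 mitotic, and the 250 bases before the start of the gene were searched on both strands. Capitals mark 3 elements on either strand. They are the CCAAT box, the cell cycle homology region, spelled TTTGAA and also counted where it reads TTTAAA, and the E2F forms TTTCCCGC, TTTCGCGC, TTTGCCGC and TTTGGCGC. Pcna lies at chr3:139955821-139956070, minus strand, Mcm6 at chr13:42404353-42404602, minus strand, Mki67 at chr1:199952594-199952843, minus strand, Cdk1 at chr20:19265043-19265292, plus strand and Ccnb1 at chr2:33655226-33655475, minus strand. All are written 5′ to 3′ on the gene's own strand and end at the base before its start.
Pcna: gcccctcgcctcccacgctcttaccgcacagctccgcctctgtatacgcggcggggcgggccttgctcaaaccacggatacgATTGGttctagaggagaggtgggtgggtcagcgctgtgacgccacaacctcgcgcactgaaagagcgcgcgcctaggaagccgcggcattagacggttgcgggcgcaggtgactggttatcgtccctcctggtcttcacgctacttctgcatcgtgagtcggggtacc
Mcm6: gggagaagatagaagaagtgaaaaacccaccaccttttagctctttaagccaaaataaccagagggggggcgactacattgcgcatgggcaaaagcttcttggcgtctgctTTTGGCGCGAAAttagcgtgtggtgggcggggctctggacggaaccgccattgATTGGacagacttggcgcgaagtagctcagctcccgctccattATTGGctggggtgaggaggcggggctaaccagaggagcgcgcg
Mki67: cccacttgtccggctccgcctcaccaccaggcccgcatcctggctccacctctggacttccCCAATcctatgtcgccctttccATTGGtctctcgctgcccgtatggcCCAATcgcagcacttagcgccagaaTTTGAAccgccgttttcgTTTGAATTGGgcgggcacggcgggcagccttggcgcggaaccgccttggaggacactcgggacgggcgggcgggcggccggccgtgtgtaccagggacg
Cdk1: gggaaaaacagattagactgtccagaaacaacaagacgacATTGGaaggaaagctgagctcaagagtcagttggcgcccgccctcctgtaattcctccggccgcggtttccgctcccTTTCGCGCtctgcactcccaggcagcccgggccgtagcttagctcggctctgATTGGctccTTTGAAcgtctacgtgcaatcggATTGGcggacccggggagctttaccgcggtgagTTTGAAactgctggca
Ccnb1: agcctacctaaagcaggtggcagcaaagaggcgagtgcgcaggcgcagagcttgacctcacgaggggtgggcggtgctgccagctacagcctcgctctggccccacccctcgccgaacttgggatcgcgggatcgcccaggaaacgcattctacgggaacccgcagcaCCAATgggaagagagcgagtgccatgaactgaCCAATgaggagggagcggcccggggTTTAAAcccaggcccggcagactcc
Pcna held a reversed CCAAT and no match to the E2F forms or the homology region. In Mcm6 an E2F form on each strand overlaps with the other. In Mki67 the TTTGAA nearest the start overlaps a reversed CCAAT by its last base. Cdk1 held TTTGAA beginning 72 and 16 bases before the start and a single E2F form beginning 133 bases before it.

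The homology region in either spelling was found in 13 of 14 mitotic members with a promoter (92.9%) and in 2 of 12 S phase members (16.7%), beside 25.4% of all 33469 rat promoters of the table. CCAAT was found in 11 of 14 mitotic members (78.6%), in 7 of 12 S phase members (58.3%) and in 34% of all promoters. The E2F forms were found in 5 of 12 S phase members (41.7%), namely Mcm2, Mcm5, Mcm6, Mcm7 and Tyms, in 1 of 14 mitotic members (7.14%, Cdk1) and in 1.73% of all promoters. These are matches of letters, not measured binding.

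Values are FPKM, fragments per kilobase of transcript scaled to the fragments of the library, so levels can be set side by side between genes. Pcna, the sliding clamp of DNA polymerase, was by far the highest member with a mean of 36.5 FPKM over the 12 rats. Rrm1 (13.0 FPKM), Tyms (9.32 FPKM), Mcm4 (8.20 FPKM), Mcm7 (7.58 FPKM) and Mki67 (7.31 FPKM) came next, and Cdc6 (0.905 FPKM) and Ccnb2 (0.597 FPKM) were lowest. The median of the members was 3.65 FPKM for S phase and 2.46 FPKM for mitotic genes, against 10.1 FPKM over all genes tested. Foxm1 was the sole member with more than 1 transcript in the table. Of its 3 transcripts, the one that held nearly all of its FPKM elsewhere was joined by another at 0.854 FPKM in cisplatin with CYM-5478 rat 1 and 0.899 FPKM in rat 2. That transcript was at 0.0662 FPKM in cisplatin rat 3 and near 0 in the other rats.

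The tissue label was checked on marker genes. All 18 pan-neuronal, 10 satellite glia and 10 myelinating Schwann cell markers were above the filter, and none was at 0 in any rat. Passing the filter does not tell tissues apart, since 13 of 14 skeletal muscle markers passed it too. Over the 12 rats the summed FPKM was 2673 to 7385 for pan-neuronal and 2294 to 2791 for satellite glia markers. It was 18434 to 30583 for myelinating Schwann cell markers and 11.6 to 83.5 for skeletal muscle markers. The absolute read depth is unknown. Relative depth was roughly estimated as the inverse of the median FPKM ratio to vehicle rat 1, over transcripts seen in few libraries. It put cisplatin with CYM-5478 rat 2 at 1.54 times and rat 3 at 1.18 times the depth of vehicle rat 1, and the others at 0.902 to 1.07 times. Differences in transcript level also enter this estimate. Groups were compared by limma on log2(FPKM + 0.5), with p-values adjusted by Benjamini-Hochberg over all 16753 genes and adjusted p under 0.05 as the threshold. Fold changes on this scale understate the change of low genes. All comparisons share groups, so each stands by its own values.

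The first comparison asked whether ganglia of cisplatin rats differed from those of vehicle rats. Pcna rose with cisplatin, and the other 34 members did not pass the test. In FPKM, Pcna stood at 42.5, 36.7, 36.9 and 44.1 in cisplatin rats 1 to 4, against 34.1, 32.02, 33.3 and 30.9 in vehicle rats 1 to 4. Every cisplatin rat was above every vehicle rat. The mean was 40.03 ± 3.83 FPKM with cisplatin and 32.6 ± 1.44 FPKM with vehicle (SD, n = 4 each), a log2 difference of 0.28 (SE 0.08, 95% interval 0.11 to 0.46, limma adjusted p = 0.0442). Of all genes tested, 10.7% were called in this comparison, 2.73% as higher and 7.98% as lower in cisplatin rats, so the 1 member of 35 (2.86%), called as higher, was near the background of higher calls. Groups that did not overlap were found for Pcna alone among the members and for 18.4% of all genes (7.34% with cisplatin higher).

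The Pcna call sat close to the threshold. It was lost when vehicle rat 1, 2, 3 or 4 was left out (limma adjusted p = 0.0597, 0.114, 0.0696 and 0.0895 in that order), without cisplatin rat 1 (0.114) or 4 (0.116), and without cisplatin with CYM-5478 rat 1 (0.0532) or 4 (0.0611). Its log2 difference stayed between 0.23 and 0.32 in all 12 of these repeats. With values rescaled to TPM it was 0.17 (limma adjusted p = 0.152). Pan-neuronal markers moved with the same groups, with all 18 below 0 in cisplatin rats, 14 of them called, and sums of 2673 to 4526 FPKM in cisplatin rats, against 5131 to 7385 FPKM in vehicle rats. The 10 myelinating Schwann cell markers summed to 24371 to 30583 FPKM in cisplatin rats and 19131 to 27036 FPKM in vehicle rats, and all 10 lay above 0 with none called. Fibroblast markers summed to 4787 to 5598 FPKM in cisplatin rats, against 3584 to 4501 FPKM in vehicle rats, without overlap, and 9 of 10 lay above 0 (2 called as higher, 1 as lower). Of the endothelial markers 9 of 10 lay above 0 (1 called), and of the macrophage markers 14 of 14 (none called). Satellite glia markers were mixed, with 1 called as higher and 2 as lower. The part of these cells in the Pcna result was not tested.

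**Figure D1:**
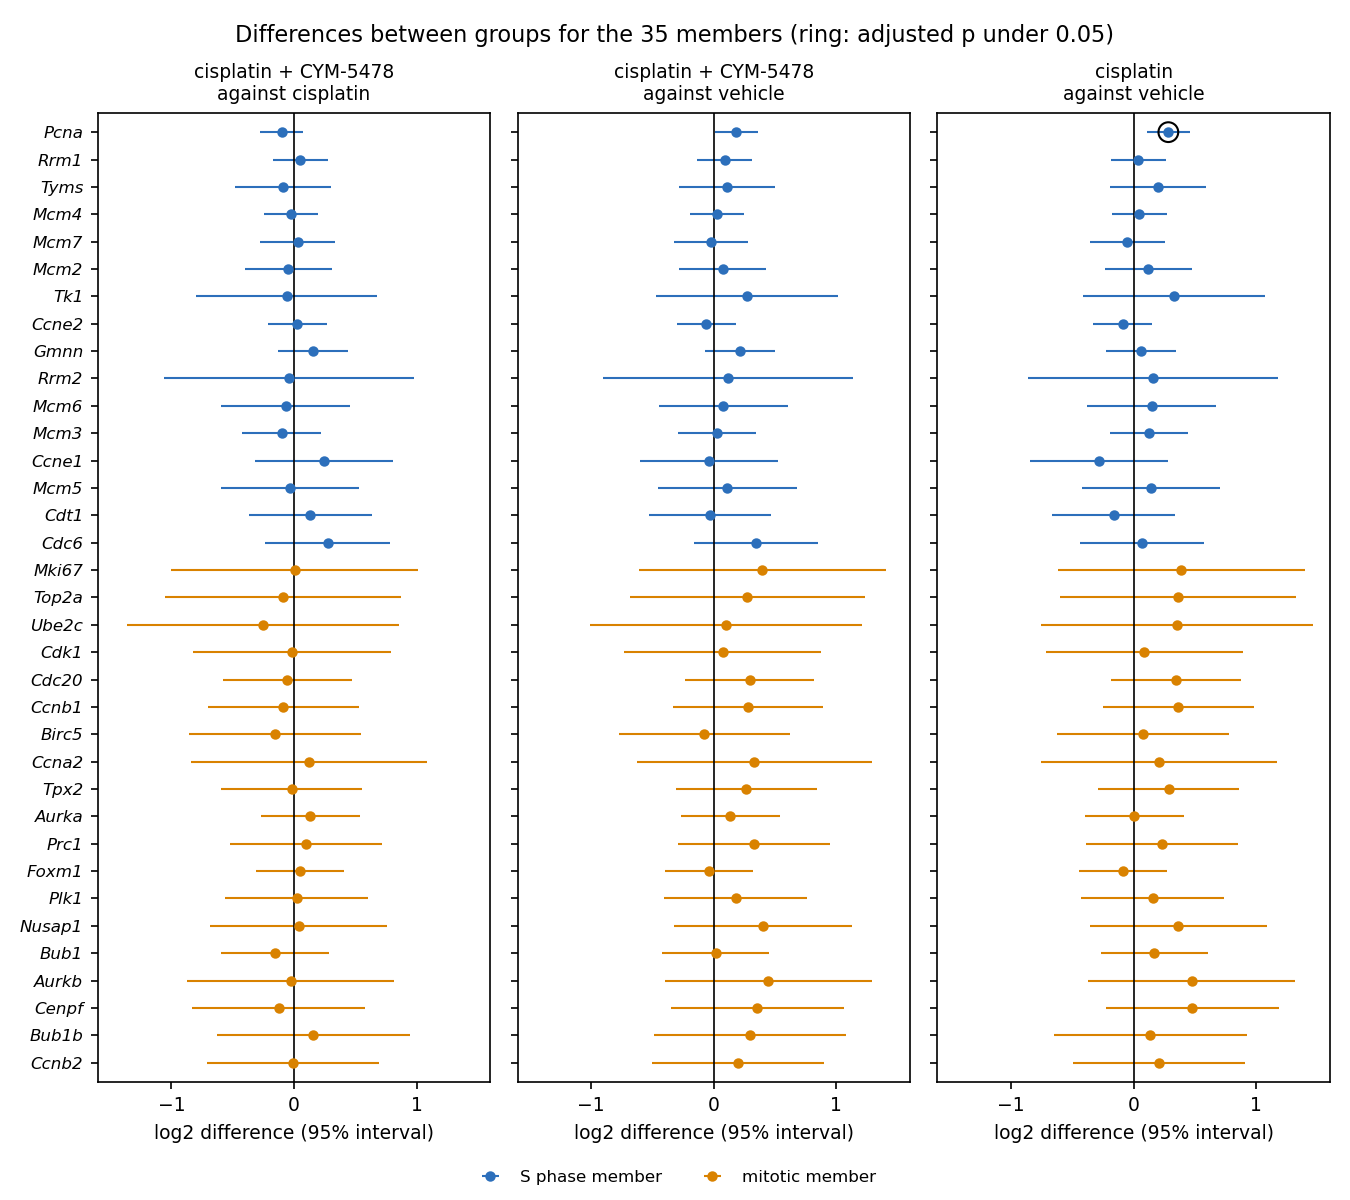
Log2 difference of each of the 35 members (points) with its 95% interval (lines) for cisplatin with CYM-5478 against cisplatin, cisplatin with CYM-5478 against vehicle, and cisplatin against vehicle. S phase members are blue and mitotic members orange, in order of falling mean FPKM within each. The ring marks the single value with limma adjusted p under 0.05, Pcna with cisplatin at 0.28, and the intervals of the mitotic members are the wider ones.

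Among the other replication genes, the licensing factors and the helicase showed differences within their error. Mcm2 to Mcm7 encode the ring-shaped MCM helicase, Cdc6 and Cdt1 load it, and Gmnn (geminin) blocks Cdt1. Log2 differences of cisplatin against vehicle ran from -0.05 for Mcm7 (95% interval -0.36 to 0.25) to 0.15 for Mcm6 (-0.38 to 0.67) in the helicase. They were 0.07 for Cdc6 (-0.44 to 0.58), -0.16 for Cdt1 (-0.66 to 0.33) and 0.06 for Gmnn (-0.23 to 0.34).

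None of the genes that make deoxynucleotides passed the test, and their spread differed widely. Rrm1, the large subunit of ribonucleotide reductase, had 13.2, 13.3, 12.04 and 13.1 FPKM in cisplatin rats 1 to 4, against 13.5, 11.3, 14.0 and 11.5 FPKM in vehicle rats 1 to 4. The groups overlapped and differed by 0.04 (log2, 95% interval -0.18 to 0.26). Rrm2, the small subunit that is made mainly in S phase, had 3.33, 3.52, 2.44 and 4.00 FPKM in cisplatin rats 1 to 4 and 2.33, 2.21, 5.79 and 2.19 FPKM in vehicle rats 1 to 4. Vehicle rat 3 stood above all cisplatin rats and the other 3 vehicle rats below them all, and the log2 difference of 0.16 had a 95% interval of -0.86 to 1.18. Tyms, thymidylate synthase, had 10.1, 8.81, 11.9 and 8.94 FPKM in cisplatin rats 1 to 4, against 7.62, 7.85, 8.73 and 10.0 FPKM in vehicle rats 1 to 4. All but vehicle rat 4 lay below the lowest cisplatin rat, and the difference of 0.20 did not pass (95% interval -0.19 to 0.59, limma adjusted p = 0.506). Tk1, the thymidine kinase of dividing cells, differed by 0.33 (-0.41 to 1.07).

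Both genes of cyclin E, which partners CDK2 at the start of S phase, had differences below 0 that did not pass the test. Ccne1 had 1.40, 2.09, 1.78 and 2.80 FPKM in cisplatin rats 1 to 4, against 1.81, 2.17, 4.01 and 2.39 FPKM in vehicle rats 1 to 4. The groups overlapped, and its log2 difference of -0.28 (95% interval -0.85 to 0.28) was the lowest of the 35. Ccne2 differed by -0.09 (-0.33 to 0.15).

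The 19 mitotic members had no call in this comparison, and the closest were Cenpf, Cdc20 and Ccnb1. Cenpf, a protein of the kinetochore, had 1.46, 1.83, 1.26 and 2.06 FPKM in cisplatin rats 1 to 4, against 0.938, 0.953, 1.46 and 0.805 FPKM in vehicle rats 1 to 4. Cdc20, which activates the anaphase-promoting complex, had 3.29, 2.72, 3.30 and 4.40 FPKM in cisplatin rats 1 to 4, against 2.17, 2.28, 3.63 and 2.30 FPKM in vehicle rats 1 to 4. In both genes vehicle rat 3 reached into the cisplatin range while the other 3 vehicle rats lay below it. Ccnb1, the cyclin that drives entry into mitosis, had 2.62, 3.57, 3.38 and 3.45 FPKM in cisplatin rats 1 to 4, against 2.14, 2.73, 3.25 and 1.68 FPKM in vehicle rats 1 to 4. Vehicle rats 2 and 3 lay inside the cisplatin range. Log2 differences were 0.48 for Cenpf (95% interval -0.22 to 1.18, limma adjusted p = 0.357), 0.35 for Cdc20 (-0.18 to 0.87, 0.377) and 0.37 for Ccnb1 (-0.25 to 0.98, 0.427).

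Mki67, the Ki-67 protein used to count dividing cells, had 6.59, 8.18, 4.68 and 10.5 FPKM in cisplatin rats 1 to 4, against 4.61, 4.40, 10.4 and 3.75 FPKM in vehicle rats 1 to 4. Top2a, the topoisomerase that untangles replicated DNA, had 4.06, 3.84, 2.87 and 6.36 FPKM in cisplatin rats 1 to 4, against 2.42, 2.45, 5.98 and 2.46 FPKM in vehicle rats 1 to 4. Ube2c, a ubiquitin-conjugating enzyme of the anaphase-promoting complex, had 5.04, 4.34, 1.87 and 6.14 FPKM in cisplatin rats 1 to 4, against 2.58, 3.26, 5.63 and 1.70 FPKM in vehicle rats 1 to 4. For all 3 genes cisplatin rat 4 was the highest of its group and vehicle rat 3 of its group, and the groups overlapped. Their log2 differences of 0.39, 0.36 and 0.35 had 95% intervals of -0.62 to 1.40, -0.60 to 1.32 and -0.75 to 1.46. A rise or a fall of 1.5-fold in Mki67 lay within its interval. These intervals use a spread shared by all groups, also the group with CYM-5478, which is not part of this comparison. For Mki67 the SD was 6.02 FPKM in cisplatin with CYM-5478 rats, 2.45 FPKM in cisplatin rats and 3.10 FPKM in vehicle rats.

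Aurkb, the kinase of the chromosomal passenger complex, had 1.76, 1.85, 1.15 and 2.84 FPKM in cisplatin rats 1 to 4, against 1.27, 0.807, 2.27 and 0.710 FPKM in vehicle rats 1 to 4. Nusap1, which bundles spindle microtubules, had 1.32, 1.90, 2.13 and 2.33 FPKM in cisplatin rats 1 to 4, against 1.37, 0.791, 2.26 and 1.25 FPKM in vehicle rats 1 to 4. Both overlapped between groups, with differences of 0.47 (95% interval -0.37 to 1.32) and 0.37 (-0.36 to 1.09). For the remaining 11 mitotic members the differences ran from -0.09 for Foxm1, the transcription factor of mitotic genes, to 0.29 for Tpx2, which activates Aurora A. They include the mitotic kinases Cdk1 (0.09), Plk1 (0.16), Aurka (0.0042) and Bub1 (0.17), the cyclins Ccna2 (0.21) and Ccnb2 (0.21), the checkpoint protein Bub1b (0.14), survivin or Birc5 (0.08) and the spindle midzone protein Prc1 (0.23). None had an unadjusted limma p under 0.05, which 28.4% of all genes had in this comparison.

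Most members lay slightly above 0 without passing the test. The median log2 difference of cisplatin against vehicle was 0.16 over the 35 members, 0.09 for S phase and 0.23 for mitotic members, against 0.02 over all genes tested. It was above 0 for 30 of 35 members (12 of 16 S phase and 18 of 19 mitotic) and for 53.7% of all genes. Rescaling to TPM shifted the median of all genes by -0.11, and 23 of 35 members were then above 0. Relative to the median of all genes, 29 of 35 lay above it under either scaling. The median and this count rested on single rats. The median was 0.05 without cisplatin rat 4 (24 of 35 above 0), 0.06 without vehicle rat 2 (27 above 0) and 0.29 without vehicle rat 3 (32 above 0). Of the markers of blood-forming cells, 15 of 15 granulocyte precursor genes (median 0.41) and 10 of 13 red cell precursor genes (median 0.32) also lay above 0, and their part in the result was not tested.

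**Figure D2:**
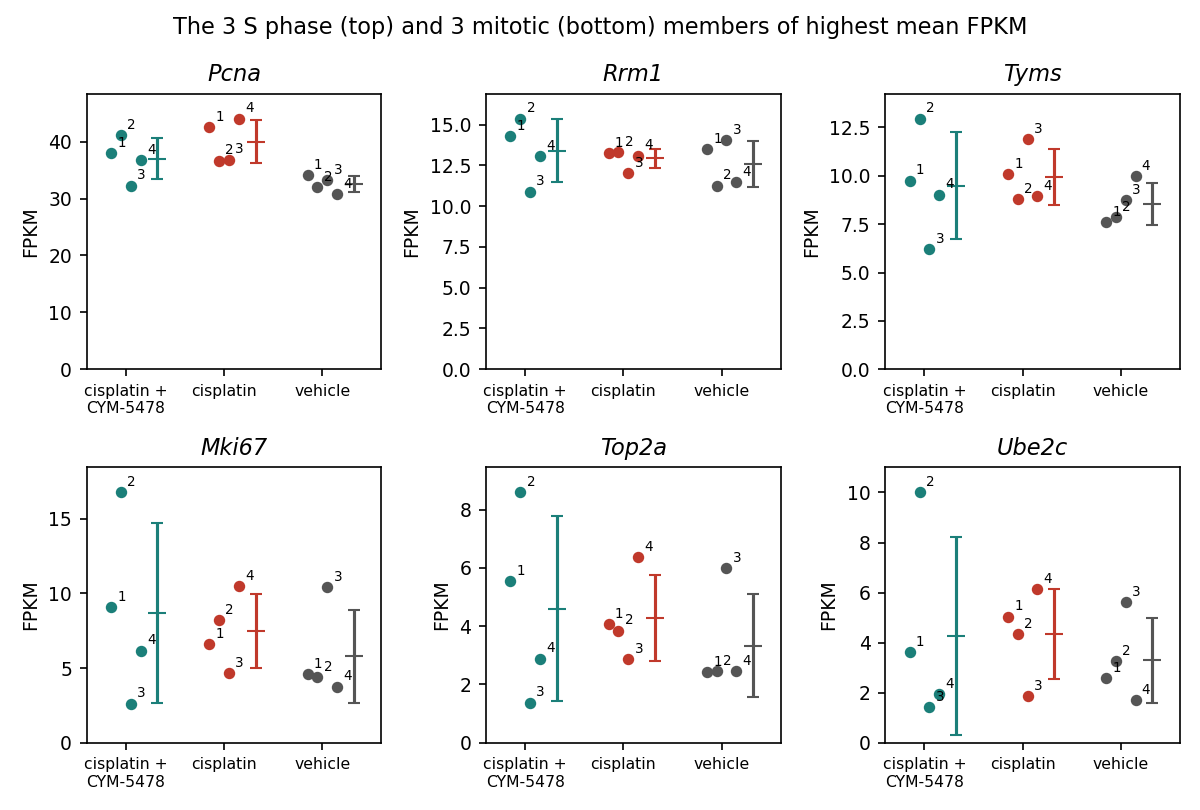
FPKM of the 3 S phase members (top) and the 3 mitotic members (bottom) of highest mean level, with 1 point per rat numbered by replicate and the mean ± SD of 4 rats beside it, for cisplatin with CYM-5478, cisplatin and vehicle. Pcna in cisplatin rats, 36.7 to 44.1 FPKM, lies above vehicle rats, 30.9 to 34.1 FPKM, while Mki67, Top2a and Ube2c spread more within a group than between groups.

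The next comparison asked whether CYM-5478 changed these genes in cisplatin-treated rats. No member passed the test in cisplatin with CYM-5478 rats against cisplatin rats, where 5.62% of all genes were called (4.53% as higher). None had an unadjusted limma p under 0.05 either, against 24.6% of all genes, and the smallest limma adjusted p of a member was 0.471 (Pcna). No member had groups that did not overlap, as 9.77% of all genes had with CYM-5478 higher and 6.54% with it lower. In cisplatin with CYM-5478 rats 1 to 4, Pcna stood at 37.9, 41.1, 32.3 and 36.8 FPKM, against the 36.7 to 44.1 FPKM of cisplatin rats. Rat 3 fell below all cisplatin rats, the other 3 lay inside their range, and the log2 difference was -0.10 (95% interval -0.28 to 0.07).

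Other members with the smallest p in this comparison were Gmnn, Cdc6 and Ccne1, all S phase genes. Gmnn had 3.65, 4.58, 4.65 and 3.06 FPKM in cisplatin with CYM-5478 rats 1 to 4, against 3.25, 3.37, 3.31 and 4.17 FPKM in cisplatin rats 1 to 4. Cdc6 had 0.999, 2.05, 0.629 and 0.903 FPKM in cisplatin with CYM-5478 rats 1 to 4, against 0.613, 1.08, 0.664 and 0.911 FPKM in cisplatin rats 1 to 4. Ccne1 had 2.40, 3.74, 2.41 and 1.49 FPKM in cisplatin with CYM-5478 rats 1 to 4, against the 1.40 to 2.80 FPKM of cisplatin rats. The groups overlapped in all 3 genes, and in Gmnn rat 3 was the highest of the 12 rats, while in 26 other members it was the lowest. Log2 differences were 0.15 for Gmnn (95% interval -0.13 to 0.44), 0.27 for Cdc6 (-0.23 to 0.78) and 0.24 for Ccne1 (-0.32 to 0.81).

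For 18 of the 19 mitotic members, Aurka being the exception, the SD of the FPKM was largest in the group with CYM-5478. The same held for all S phase members but Pcna and Ccne1. The share of all genes for which this held is not given here. Mki67 had 9.08, 16.8, 2.62 and 6.16 FPKM in cisplatin with CYM-5478 rats 1 to 4. Top2a had 5.54, 8.60, 1.37 and 2.89 FPKM in these rats and Ube2c 3.63, 10.0, 1.41 and 1.94 FPKM. Rat 2 lay above and rat 3 below every cisplatin rat in all 3 genes. The differences from cisplatin were 0.0044 for Mki67 (95% interval -1.00 to 1.01), -0.09 for Top2a (-1.05 to 0.87) and -0.25 for Ube2c (-1.36 to 0.85).

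Cdk1, Aurkb and Ccnb1 repeated that order of rats. Cdk1 had 3.93, 6.55, 0.970 and 2.97 FPKM, Aurkb 2.48, 3.62, 0.622 and 1.42 FPKM, and Ccnb1 3.89, 5.44, 1.67 and 2.15 FPKM in cisplatin with CYM-5478 rats 1 to 4. Cenpf (1.73, 3.34, 0.522 and 1.13 FPKM), Cdc20 (3.88, 5.04, 1.88 and 2.80 FPKM) and Nusap1 (2.79, 3.48, 0.765 and 1.63 FPKM) did so too. Rat 2 was the highest and rat 3 the lowest of the 4 in each of these 6 genes. The same held for Rrm1 (14.3, 15.4, 10.9 and 13.0 FPKM) and Tyms (9.76, 13.0, 6.21 and 9.02 FPKM) among the S phase members.

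Over the 35 members the median log2 difference of cisplatin with CYM-5478 against cisplatin was -0.02, equal to that of all genes, and 15 of 35 lay above 0, as did 46.7% of all genes. That count rested on single rats. It was 5 of 35 without cisplatin with CYM-5478 rat 2, 32 without rat 3, 25 without rat 4, and 26 without cisplatin rat 4. Under TPM scaling, which shifted the median of all genes by 0.10, it was 29, and 15 of 35 then lay above that median, against 16 in the main scaling. Cell markers differed in this comparison too. All 18 pan-neuronal markers lay above 0 (median 0.60, 9 called). Above 0 were 0 of 10 myelinating Schwann cell, 0 of 10 endothelial and 1 of 10 fibroblast markers, with 1 called as lower in each list. Satellite glia markers were mixed (4 of 10 above 0, none called). Of the granulocyte precursor genes 1 of 15 lay above 0 (median -0.31), and of the red cell precursor genes 5 of 13 (median -0.04). Above 0 were also 1 of 14 macrophage (median -0.21), 2 of 9 B lymphocyte (-0.37) and 2 of 5 T and natural killer cell markers (-0.21). None of these 5 lists held a called gene. The part of these cells in the member values was not tested.

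Against vehicle, cisplatin with CYM-5478 rats had no called member and no called gene at all (0% of all genes). Pcna was the sole member with an unadjusted limma p under 0.05, which 5.79% of all genes had, at a log2 difference of 0.18 (95% interval 0.01 to 0.36, limma adjusted p = 0.840). Its rat 3 lay inside the vehicle range and the other 3 above it. No member had groups that did not overlap, against 3.5% of all genes (1.58% with cisplatin and CYM-5478 higher and 1.92% with them lower). The median over the members was 0.14, with 29 of 35 above 0 (49.7% of all genes), and the largest differences were 0.45 for Aurkb (95% interval -0.40 to 1.29) and 0.40 for Nusap1 (-0.32 to 1.13). Without cisplatin with CYM-5478 rat 2 the count above 0 was 14 of 35. It was 26 without rat 1 of that group, 34 without rat 3 and 34 without rat 4. With both cisplatin groups set against vehicle, no member was called and 0.00597% of all genes were. Pcna alone had an unadjusted limma p under 0.05 (17.1% of all genes), no member had groups that did not overlap (1.12% of all genes, 0.686% as higher), and 29 of 35 lay above 0 (51% of all genes). The difference was 0.23 for Pcna (95% interval 0.08 to 0.38, limma adjusted p = 0.171), 0.32 for Cdc20, 0.42 for Cenpf and 0.46 for Aurkb.

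Rats of the same group differed widely in these genes, and the same few rats stood apart in most of them. Of the 35, 29 (82.9%) were highest of all 12 rats in cisplatin with CYM-5478 rat 2, and 26 (74.3%) were lowest in rat 3 of the same group. Over all genes tested these shares were 6.71% and 11.7%. Each of the other groups also held a rat that stood high. Within the cisplatin group rat 4 was highest for 28 of 35 members, and within the vehicle group rat 3 was highest for 32 of 35, where over all genes the shares were 25.1% and 26.3%.

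**Figure D3:**
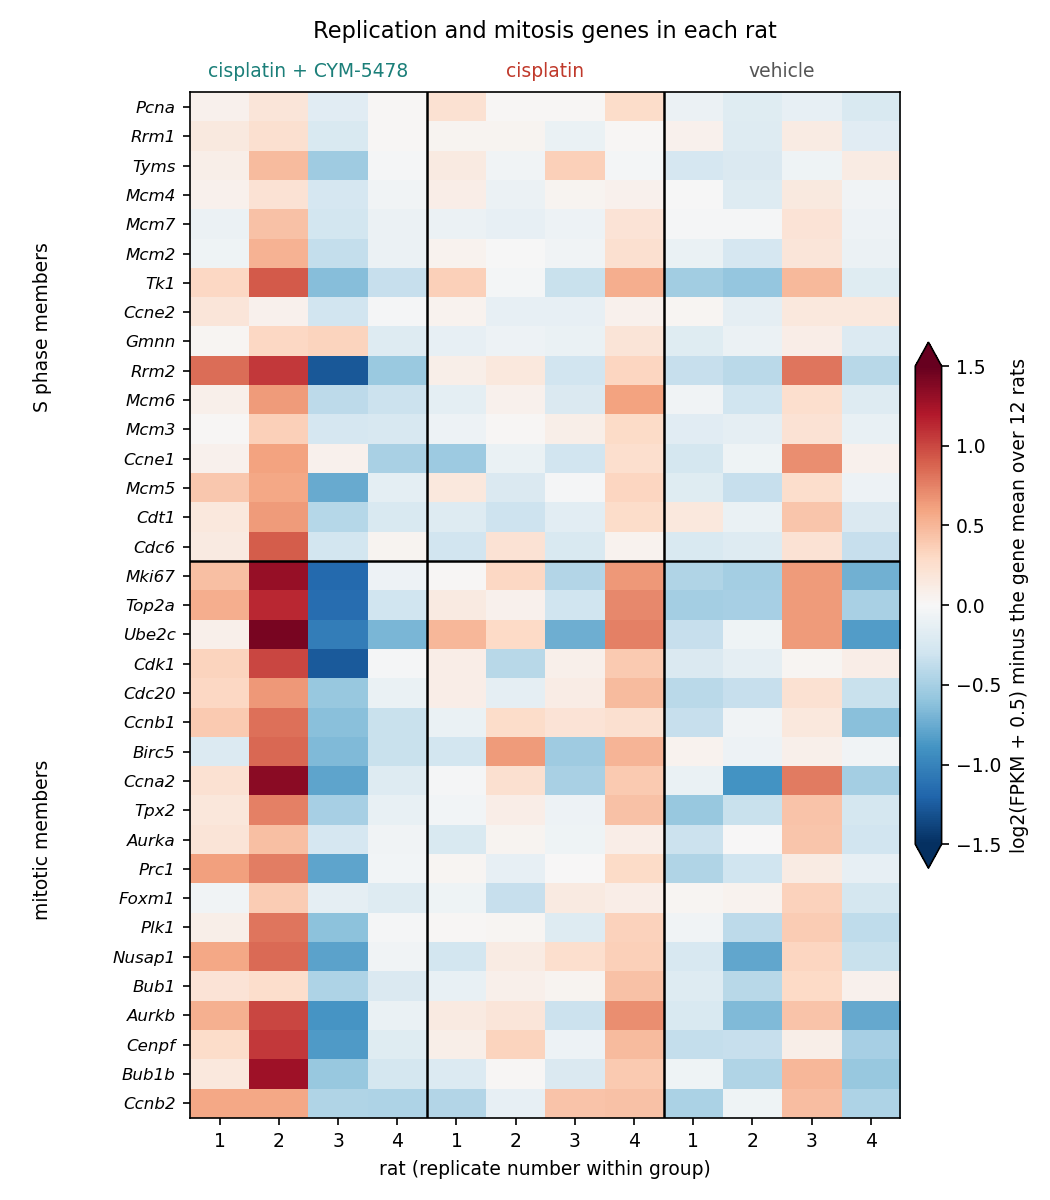
Level of the 35 members in each rat, as log2(FPKM + 0.5) minus the mean of the gene over the 12 rats, with red above and blue below that mean. Columns are the 4 rats of cisplatin with CYM-5478, cisplatin and vehicle, rows the S phase members (top) and mitotic members (bottom) by falling mean FPKM. Red columns stand at cisplatin with CYM-5478 rat 2, cisplatin rat 4 and vehicle rat 3, and a blue column at cisplatin with CYM-5478 rat 3.

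S phase and mitotic members were high and low in the same rats, with the mitotic members covering the wider range. A score was taken for each list in each rat, as the average of its genes' log2(FPKM + 0.5) after subtracting each gene's vehicle mean. Mitotic scores were 0.45, 1.04, -0.55 and -0.04 in cisplatin with CYM-5478 rats 1 to 4, 0.11, 0.23, 0.04 and 0.59 in cisplatin rats 1 to 4, and -0.12, -0.17, 0.52 and -0.23 in vehicle rats 1 to 4. S phase scores were 0.21, 0.57, -0.30 and -0.11 in cisplatin with CYM-5478 rats 1 to 4, 0.03, 0.01, -0.04 and 0.29 in cisplatin rats 1 to 4, and -0.08, -0.16, 0.31 and -0.07 in vehicle rats 1 to 4. The 4 rats of highest score were the same in both lists, cisplatin with CYM-5478 rats 1 and 2, cisplatin rat 4 and vehicle rat 3, and cisplatin with CYM-5478 rat 3 was lowest in both. The groups overlapped in both scores. The mitotic score minus the S phase score was -0.26 to 0.47 in cisplatin with CYM-5478 rats, 0.08 to 0.30 in cisplatin rats and -0.16 to 0.21 in vehicle rats.

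The SD between rats of a group, on the log2 scale, had a median of 0.51 over the 19 mitotic members and 0.26 over the 16 S phase members, against 0.15 over all genes tested and 0.20 over tested genes with a mean under 10 FPKM. The highest rat stood 4.21-fold (median) above the lowest for mitotic members, 2.02-fold for S phase members and 1.54-fold for all genes. S phase members were not uniform. Rrm2 had a 7.12-fold span and an SD of 0.75, close to those of Mki67 (0.74) and Top2a (0.70), and Tk1, with an SD of 0.54 and a 3.31-fold span, also lay above the mitotic median of the SD. Cdc6 (3.61-fold) and Mcm5 (3.22-fold) had wide spans too. Pcna (0.12), Mcm4 (0.15), Ccne2 (0.15) and Rrm1 (0.15) were the steadiest members. Of the mitotic members, Foxm1 (0.24) and Aurka (0.28) varied least and Ube2c (0.81) most.

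**Figure D4:**
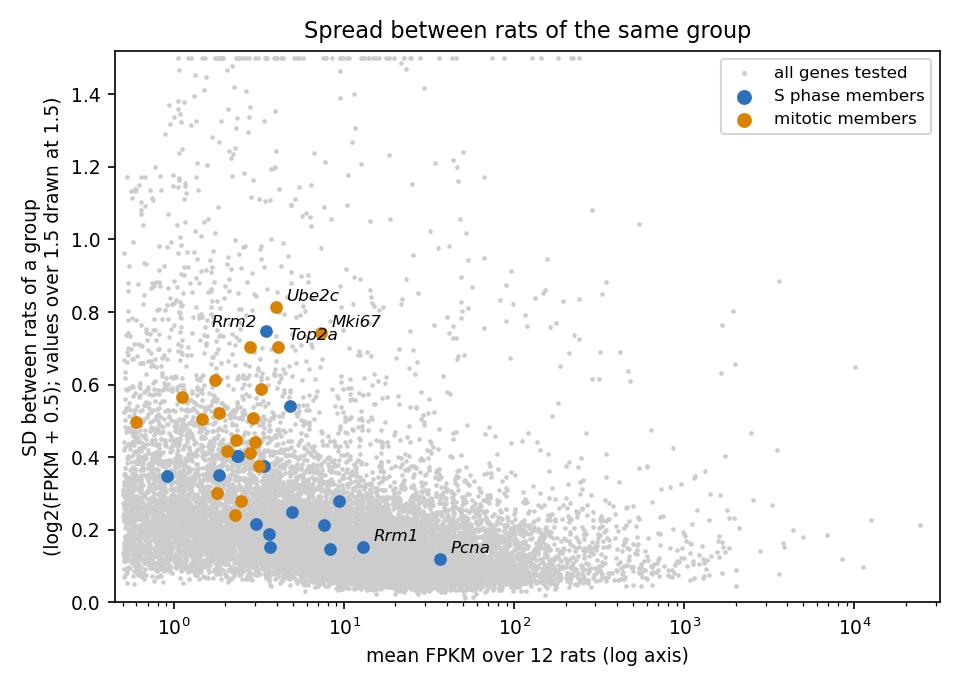
SD between rats of the same group, on the log2(FPKM + 0.5) scale, against the mean FPKM over 12 rats (log axis) for all genes tested (grey), S phase members (blue) and mitotic members (orange). Most mitotic members and Rrm2 lie high among genes of like level, with Ube2c at 0.81, while Pcna at 0.12 and Rrm1 at 0.15 lie within the bulk of genes.

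Markers of blood-forming cells were highest and lowest in the same rats as the members. The score of 15 neutrophil and granulocyte precursor genes was 0.68, 1.61, -1.29 and -0.25 in cisplatin with CYM-5478 rats 1 to 4, 0.29, 0.42, -0.25 and 1.29 in cisplatin rats 1 to 4, and -0.17, -0.07, 0.82 and -0.58 in vehicle rats 1 to 4. Their summed FPKM ranged from 220 to 2382 in cisplatin with CYM-5478 rats, from 506 to 1956 in cisplatin rats and from 441 to 1164 in vehicle rats. Mpo, the peroxidase of granulocyte precursors, had 11.2, 33.8, 1.87 and 5.62 FPKM in cisplatin with CYM-5478 rats 1 to 4, 6.57, 11.2, 4.96 and 24.8 FPKM in cisplatin rats and 4.26, 5.23, 12.8 and 3.58 FPKM in vehicle rats. Ltf was at 0 in 8 rats and at most 0.0569 FPKM in the other 4.

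The score of 13 red cell precursor genes was 0.75, 1.34, -1.28 and -0.05 in cisplatin with CYM-5478 rats 1 to 4, 0.33, 0.45, -0.67 and 0.74 in cisplatin rats 1 to 4, and -0.21, -0.11, 0.81 and -0.49 in vehicle rats 1 to 4. Their sums ranged from 61.7 to 357 FPKM in cisplatin with CYM-5478 rats, from 102 to 264 FPKM in cisplatin rats and from 114 to 272 FPKM in vehicle rats, and Gata1 and Tspo2 were at 0 in some rats. Scores of lymphocyte, endothelial, myelinating Schwann cell and skeletal muscle genes were also lowest in cisplatin with CYM-5478 rat 3. The pan-neuronal score of that rat, 0.21, was below that of vehicle rat 2 (0.24) alone. Skeletal muscle scores ranged from -0.51 to 0.61 in cisplatin with CYM-5478 rats, -0.48 to 1.64 in cisplatin rats and -0.15 to 0.25 in vehicle rats. B lymphocyte scores ranged from -0.58 to 0.17 in cisplatin with CYM-5478 rats, -0.36 to 0.73 in cisplatin rats and -0.57 to 0.54 in vehicle rats. Scores of satellite glia genes stayed between -0.07 and 0.09 in all 12 rats, as an average over genes that differed in both directions (log2 -0.50 to 0.33 in cisplatin against vehicle). None of the granulocyte or red cell precursor genes passed the test in cisplatin against vehicle or in cisplatin with CYM-5478 against cisplatin. The part of these cells in the levels of the members was not tested.

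**Figure D5:**
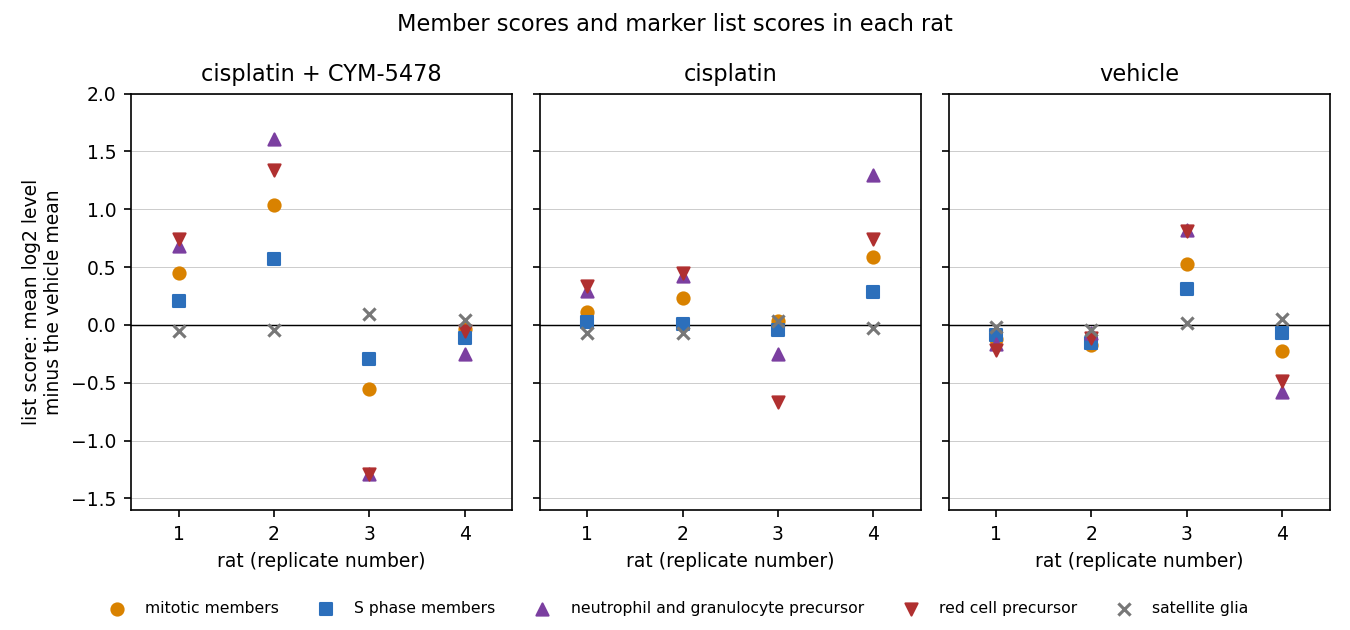
Score of each gene list (mean log2 level over its genes minus the vehicle mean) in each rat of cisplatin with CYM-5478, cisplatin and vehicle, for mitotic members, S phase members, neutrophil and granulocyte precursor genes, red cell precursor genes and satellite glia genes. Cisplatin with CYM-5478 rat 2, at 1.04 for mitotic members and 1.61 for granulocyte precursor genes, stands highest and rat 3 of that group lowest, while satellite glia stay between -0.07 and 0.09.

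Further genes of the cycle were read from lists set beside the members. Of 32 further S phase genes 28 were tested and none was called with cisplatin, and those of smallest p were Fen1, the flap endonuclease (log2 difference -0.28, 95% interval -0.51 to -0.05, limma adjusted p = 0.103), and the transcription factor E2f1 (-0.23, -0.43 to -0.03, 0.126). Of 39 further mitotic genes 35 were tested and none was called, with Cdc25c, the phosphatase that activates CDK1, at -0.38 (-0.72 to -0.04, 0.134) and the kinase Pbk at 0.51 (-0.13 to 1.15, 0.283). Median differences of these lists were 0.07 and 0.15. In cisplatin with CYM-5478 against cisplatin, none was called in either list. The S phase genes of smallest p there were Pola1, the catalytic subunit of DNA polymerase alpha (log2 difference -0.23, limma adjusted p = 0.182), and E2f1 (0.17, 0.277). Among mitotic genes they were Incenp of the passenger complex (0.20, limma adjusted p = 0.329) and Cdc25c (0.24, 0.366). Against vehicle, cisplatin with CYM-5478 rats had no call in either list, with Dut, the enzyme that removes dUTP, at 0.31 and Cdc45 of the replicative helicase at 0.54 (limma adjusted p = 0.840 for both). Mad2l1 of the spindle checkpoint was at 0.28 there (limma adjusted p = 0.841) and Incenp at 0.22 (0.915).

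Among 25 genes of cell cycle entry and its brakes, 2 were called with cisplatin, 1 higher and 1 lower, a share below the 10.7% of all genes. Cdkn1a, the CDK inhibitor p21, had 11.0, 7.56, 11.7 and 7.86 FPKM in cisplatin rats 1 to 4, against 5.11, 4.38, 3.501 and 5.95 FPKM in vehicle rats 1 to 4. All cisplatin rats lay above all vehicle rats (log2 difference 0.93, SE 0.23, limma adjusted p = 0.0293). Fzr1, the activator of the anaphase-promoting complex that keeps cells in G1, had 17.0, 18.3, 16.1 and 17.7 FPKM in cisplatin rats 1 to 4, against 19.9, 21.4, 21.96 and 21.1 FPKM in vehicle rats 1 to 4. It fell in cisplatin rats without overlap (-0.29, SE 0.06, limma adjusted p = 0.0204). Of all genes, 7.34% were higher and 11.1% lower in cisplatin rats without overlap. Cdkn1a lost its call without vehicle rat 2 (limma adjusted p = 0.0849) or 3 (0.0635) and without cisplatin rat 1 (0.0749), 3 (0.0606) or 4 (0.0585), and Fzr1 lost its call without vehicle rat 2 (0.0683) or cisplatin rat 4 (0.0540). Over all 25 alternatives Cdkn1a lost its call in 7 (limma adjusted p up to 0.228) and Fzr1 in 3 (up to 0.257), and neither changed direction. With CYM-5478 added, Cdkn1a had 11.7, 14.0, 7.64 and 6.82 FPKM and Fzr1 20.3, 19.9, 18.6 and 17.8 FPKM, and neither difference from cisplatin passed (0.05, limma adjusted p = 0.924, and 0.15, 0.137). Of this list the D-type cyclin Ccnd2 came nearest to a call in that comparison (-0.30, limma adjusted p = 0.110). Against vehicle, the difference of cisplatin with CYM-5478 was 0.98 for Cdkn1a (limma adjusted p = 0.697) and -0.13 for Fzr1 (0.840), with none of the 25 called. No gene of all those tested was called there either. In Cdkn1a all cisplatin with CYM-5478 rats lay above all vehicle rats, as in 1.58% of all genes, while Fzr1 overlapped.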

How the data were processed

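RNA was taken from rat dorsal root ganglia and ribosomal RNA was removed before strand-specific library preparation, per the labels' protocols. The authors deposited FPKM values in a single table with 1 column per sample and 1 line per transcript, and the table as used here is smaller than its listed size. Among the tools in the submitters' processing notes are STAR 2.7.8a, Bowtie2 2.0.6, bcl2fastq 2.20, FastQC and DESeq2, beside the build Rnor_6.0. Which of them made the FPKM is not given in the sources used here. The 30275 transcripts were summed by gene identifier to 25252 genes. Each library was divided by a size factor, its median ratio to the genes' geometric means (genes averaging at least 1 FPKM, factors 0.998 to 1.01). Testing covered the 16753 genes averaging at least 0.5 FPKM, with limma 3.58.1 in R 4.3.3 on log2(FPKM + 0.5), a variance trend, all 12 libraries in 1 fit (9 residual degrees of freedom) and Benjamini-Hochberg adjustment. Depth is unknown, so no counting interval is given.

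Replicate numbers are those of the sample descriptions, and sample titles number the rats otherwise. The design names the samples biological replicates. The p-values set a group difference against the spread between rats, pooled over all groups and moderated by the trend over all genes tested. The members and all gene lists were chosen with earlier results of these data known. Of 270 listed symbols, 261 were found as written and 3 under a synonym, while 6 had no match. Values per rat are given for members past the threshold, the 4 of smallest p in each comparison and the 3 of highest mean level in each list, and for Rrm2 and Cdk1, which were chosen after their values were seen. From the other cell cycle lists the genes past the threshold, or else the 2 of smallest p, are named, and Cdkn1a always. Promoters came from the RefSeq table of build GRCr8. Alternatives were other pseudocounts, filters, scalings (TPM, quantile), array weights, 8 libraries, replicate blocks, single transcripts and rats left out. Those for Cdkn1a and Fzr1 were chosen after seeing the data. The workflow was tested on simulated data for cisplatin against vehicle over 16753 genes. It recovered 68 of 100 genes altered 1.5-fold and 92 of 100 altered 2-fold, and 13 of its 173 calls were false. The altered genes were drawn only from those above a set vehicle level, with noise independent between genes. The SD between rats of a group (log2) had a median of 0.15 over all genes tested and 0.40 over the members. Recovery of the members themselves was not simulated, so these shares cannot be carried over to them.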

Additional observations from a re-analysis of the deposited data

Results flagged for a closer look

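Of 105 sets of 4 rats (35 members in 3 groups), 8 held a rat whose gap to the nearest other rat, over the range of the group, was above Dixon's 95% critical value for 4 samples. Chance flags about 1 in 20 such sets, and the sets are not independent because the members move together. Of the 8, 5 were vehicle rat 3 standing high. It had 3.56 FPKM of Mcm3, against 2.61 to 2.73 FPKM in the other 3 vehicle rats, and 5.79 FPKM of Rrm2, against 2.19 to 2.33 FPKM. It also had 10.4 FPKM of Mki67 (3.75 to 4.61 FPKM in the others), 5.98 FPKM of Top2a (2.42 to 2.46 FPKM) and 3.63 FPKM of Cdc20 (2.17 to 2.30 FPKM). Cisplatin rat 4 stood high for Mcm7 at 8.74 FPKM, against 6.84 to 7.09 FPKM in the other cisplatin rats, and for Gmnn at 4.17 FPKM, against 3.25 to 3.37 FPKM. Cisplatin rat 3 stood low for Rrm1 at 12.04 FPKM, against 13.1 to 13.3 FPKM. No set of cisplatin with CYM-5478 rats was flagged, although 2 of its rats held most of the extremes.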

How the results depend on the processing

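The call of 1 member in cisplatin against vehicle, Pcna, became 0 with no filter, TPM, array weights, the 8 libraries of the comparison, single transcripts and both replicate blocks. It ranged from 0 to 1 when each rat was left out (kept in 4 of 12). Over 25 alternatives Pcna kept its direction, with log2 differences of 0.17 to 0.40 and limma adjusted p from 0.0214 to 0.393. In the other 3 comparisons the count of members stayed at 0 under all alternatives run. Called genes of cisplatin against vehicle, 1794 in all, numbered 3 without vehicle rat 2, 776 without cisplatin rat 1, 0 without cisplatin rat 4, 1019 in the fit of 8 libraries and 3274 under TPM, so the threshold itself moves with single libraries. In cisplatin with CYM-5478 against cisplatin, differences that were not called changed sign for Ccne1 (-0.0357) and Gmnn (-0.0538) without both CYM-5478 rats 2 and 3, and the cause was not tested. Pcna changed sign under TPM (0.0058), a scaling that moved the median of all genes by 0.10 in this comparison.

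The replicate numbers were not taken to pair rats. Deviations of libraries with the same description number correlated between -0.24 and 0.15, over 0.1 in 1 of 12 pairs, and 5 of 12 libraries correlated best with their own number. With that number as a block 0 members and 1881 genes were called in cisplatin against vehicle (Pcna limma adjusted p = 0.0550). With the title number as a block, 0 members and 0 genes were called, Pcna was at 0.393, and 7 of 35 members lay above 0 (median -0.13). Depth is unknown, and levels near 1 FPKM rest on few fragments.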
